A study of Homo sapiens with 24 samples.

Results

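The genes described here are 9 genes of epithelial tight junctions and cell polarity, TJP1, TJP3, OCLN, CGN, CLDN3, CLDN4, CLDN7, CELSR1 and CELSR2, out of 60605 gene identifiers in a table of nascent transcription counts. They were chosen by name, with TJP3 and CELSR1 leading the choice because both were lower after TRPS1 degradation in every pair of libraries, so their dTAG-13 values are given as a description without a test. The cells were T47D, a luminal, estrogen receptor-positive breast cancer line. All groups, the controls included, carried a degron tag on the endogenous TRPS1, a GATA-family transcriptional repressor. Per the methods the untagged TRPS1 copies were knocked out, so that only tagged protein was made. Each of 3 lines, Clone 28, Clone 35 and Clone 39, was a single clone. Clones were treated for 90 min with 0.1% v/v DMSO or with 100 nM dTAG-13, a compound that brings an E3 ubiquitin ligase to the tag, and 4 replicates of each of the 6 groups were collected for PRO-seq, 24 libraries in all. Replicates of a clone were collected at different times of 1 day, with both treatments at once. Per the methods each sample was plated in its own dish or dishes the day before, so p-values measure the spread between dishes of a clone within a day.

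Tight junctions seal the space between epithelial cells near their apical side. Claudins and occludin span the membrane, while the zonula occludens proteins and cingulin form the cytoplasmic plaque that ties them to actin. CELSR1 and CELSR2 are large cadherins of planar cell polarity, the alignment of cells within the plane of a sheet. In luminal breast cells these genes belong to the epithelial program, and PRO-seq reads the RNA polymerases engaged on them rather than the amount of mRNA.

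The windows around the transcription starts of the genes with the most to compare are shown before their values: TJP3, which was lower in every pair, CLDN3 and CLDN4, which are adjacent on chromosome 7 and varied together, and CLDN7, which differed most between clones. Each RefSeq window (build GRCh38.p14) runs from 250 bases before to 50 bases after a start, 5′ to 3′ on the gene's strand. Of the 9 genes, 8 had 14 such entries, and CELSR1 had none. Capitals mark AGGTCA, found in estrogen receptor sites, the GATA letters AGATAA and the related form AGATAG, likewise the letters TGATAA and the related form TGATAG, and the E-box CACCTG, each read on both strands.
TJP3, chr19:3708134-3708433, plus strand: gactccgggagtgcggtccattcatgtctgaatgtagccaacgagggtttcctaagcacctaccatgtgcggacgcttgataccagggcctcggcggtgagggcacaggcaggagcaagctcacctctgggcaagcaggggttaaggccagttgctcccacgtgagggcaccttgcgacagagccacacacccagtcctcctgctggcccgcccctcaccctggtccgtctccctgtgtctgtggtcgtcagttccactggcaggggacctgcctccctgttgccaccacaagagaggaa
TJP3, chr19:3721487-3721786, plus strand: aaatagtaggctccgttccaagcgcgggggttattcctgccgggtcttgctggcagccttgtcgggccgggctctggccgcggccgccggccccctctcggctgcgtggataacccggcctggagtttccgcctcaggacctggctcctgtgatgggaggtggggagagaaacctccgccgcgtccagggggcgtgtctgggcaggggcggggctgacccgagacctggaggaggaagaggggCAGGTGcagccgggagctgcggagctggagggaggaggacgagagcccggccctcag
CLDN3, chr7:73770221-73770520, minus strand: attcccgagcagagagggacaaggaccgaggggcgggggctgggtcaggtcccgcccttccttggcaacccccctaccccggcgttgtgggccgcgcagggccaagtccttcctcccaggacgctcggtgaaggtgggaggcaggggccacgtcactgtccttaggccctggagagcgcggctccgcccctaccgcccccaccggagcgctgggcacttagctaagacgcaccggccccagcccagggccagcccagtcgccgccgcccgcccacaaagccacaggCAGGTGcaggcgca
CLDN4, chr7:73830746-73831045, plus strand: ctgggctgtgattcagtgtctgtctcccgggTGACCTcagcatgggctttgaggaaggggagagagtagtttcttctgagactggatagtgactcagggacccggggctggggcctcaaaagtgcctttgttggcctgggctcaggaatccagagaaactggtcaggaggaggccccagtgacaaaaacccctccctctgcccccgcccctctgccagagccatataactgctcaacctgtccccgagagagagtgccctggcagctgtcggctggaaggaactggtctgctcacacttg
CLDN7, chr17:7262429-7262728, minus strand: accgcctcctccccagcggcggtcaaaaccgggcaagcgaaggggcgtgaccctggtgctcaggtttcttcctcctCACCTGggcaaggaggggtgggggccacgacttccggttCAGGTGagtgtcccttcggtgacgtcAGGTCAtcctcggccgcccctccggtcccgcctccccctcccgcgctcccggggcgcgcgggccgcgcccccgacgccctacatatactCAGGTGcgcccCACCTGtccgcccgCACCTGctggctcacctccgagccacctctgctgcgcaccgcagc
The upstream TJP3 window held none of these letters and the downstream one held an E-box whose first base lay 7 bases before the start (-7). The CLDN3 window held an E-box at 37, past the start, and the CLDN4 window 1 AGGTCA on the opposite strand, TGACCT at -219. The CLDN7 window held 5 E-boxes and AGGTCA at -109, and a further CLDN7 window, chr17:7263164-7263463, not printed, held TGACCT at -41. Among all 14 entries, 6 held the E-box, 5 held AGGTCA and 1, that of CELSR2, held a GATA match, whereas 20.6%, 13.8% and 25% of all 35116 RefSeq windows of this length did. No motif searched contains another. A match of letters describes the sequence and does not show binding.

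The libraries held 3226718 to 9575803 counts, with a median of 5042122. Among the 9 genes the counts ran from 48 for CLDN7 in a Clone 39 library to 1706 for CELSR1 in a Clone 35 library. On hg38 with GENCODE 44, the genes other than CLDN7 lie at chr15:29699367-29968915 (TJP1, minus strand), chr19:3708362-3750813 (TJP3, plus), chr5:69492292-69558104 (OCLN, plus), chr1:151510510-151538692 (CGN, plus), chr7:73768997-73770270 (CLDN3, minus), chr7:73799542-73832690 (CLDN4, plus), chr22:46360834-46537620 (CELSR1, minus) and chr1:109249539-109275751 (CELSR2, plus). Nascent RNA covers introns as well as exons, and exons made up 9.34% of the span of TJP3 and 100% of that of CLDN3. Luminal markers were transcribed in every library (KRT8, 374 to 1350 counts, and ESR1, 5331 to 14598), and of 7 basal or mesenchymal markers 3 were near 0 (KRT5, 0 to 2 counts, KRT14, 0 to 5, and VIM, 1 to 13). The other 4 had counts in every library (TP63, 22 to 192, FN1, 23 to 98, ZEB1, 13 to 38, and CDH2, 6 to 25), and their part in the results was not tested. TRPS1 itself, whose protein and not its transcription the compound targets, stood at 5183 to 8747 CPM (counts scaled to the size of the library) in DMSO and 6304 to 9296 in dTAG-13, higher in 12 of 12 pairs.

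Levels were scaled by TMM size factors and, to compare genes, divided by the length of the gene span in GENCODE 44. In the 12 DMSO libraries CLDN3, a claudin encoded by 1 exon, had the highest level at 41.2 ± 6.6 CPM per kb (SD, n = 12), with no overlap with the next gene. CLDN7 (4.61 ± 1.2) and CLDN4 (4.47 ± 0.37) followed and overlapped each other over the 12 libraries. Within clones, CLDN7 lay wholly above CLDN4 in Clone 35 (5.25 to 6.26 against 4.29 to 5.03 CPM per kb), wholly below it in Clone 39 (2.79 to 3.41 against 3.87 to 4.62) and overlapped it in Clone 28. The plaque genes CGN (2.42 ± 0.24) and TJP3 (1.85 ± 0.16), then OCLN (1.29 ± 0.11), CELSR2 (1.19 ± 0.17) and CELSR1 (1.14 ± 0.11), formed a run in which each gene overlapped its neighbour in the order, and TJP1 was lowest at 0.419 ± 0.040. The intervals in which the authors counted reads are not stated, and the GENCODE span of CLDN4 is far longer than the transcript from its RefSeq start. The level per kb of CLDN4, and its order against CLDN3 and CLDN7, therefore depend on that choice. The whole order also rests on the division by span, which was shortest for CLDN3 (1.27 kb) and longest for TJP1 (270 kb). Before division CELSR1 (202 ± 19 CPM) and CLDN4 (148 ± 12) were highest. CLDN3, at 52.5 ± 8.4 CPM, was then above CELSR2 (31.1 ± 4.6) and CLDN7 (18.8 ± 5.0) only. The plot of CPM by library shows the scatter on which the following comparisons rest.

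**Figure D1:**
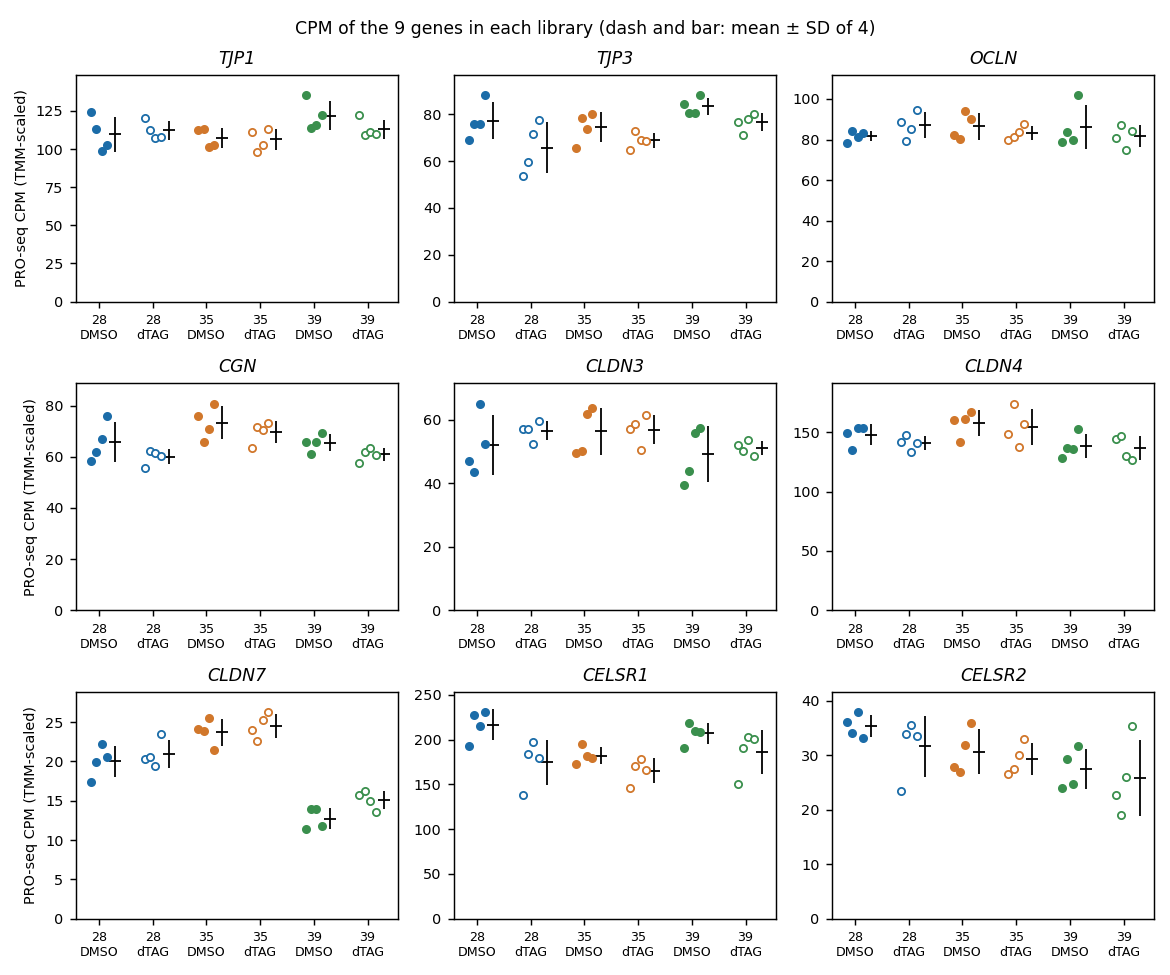
TMM-scaled CPM (vertical axis, from 0) of each of the 9 genes in the 24 libraries, by clone and treatment; filled points are DMSO, open points dTAG-13, replicates 1 to 4 run from left to right within a group, and the dash with its bar is the mean ± SD of 4. CLDN7 sits between 11.4 and 16.2 CPM in Clone 39 and between 17.4 and 26.3 CPM in the other clones.

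The clones differed in CLDN7, a claudin of the lateral membrane and tight junction, which was lower in Clone 39. Its DMSO values were 17.4, 19.9, 22.2 and 20.6 CPM in Clone 28, 24.1, 23.8, 25.5 and 21.4 CPM in Clone 35, and 11.4, 13.9, 13.9 and 11.8 CPM in Clone 39. Every Clone 39 library lay below every library of the other clones, while Clones 28 and 35 overlapped, and such separation between Clones 35 and 39 was seen for 19.9% of all genes. CLDN7 fell by 0.90 on the log2 scale in Clone 39 against Clone 35 (SE 0.11, adjusted p = 1.24e-07) and by 0.66 against Clone 28 (SE 0.12, adjusted p = 4.11e-05), both by the quasi-likelihood test of edgeR, adjusted after Benjamini and Hochberg over 22326 genes. Clones 35 and 28 differed by 0.24 (SE 0.11, adjusted p = 0.275). In dTAG-13 the same order was seen, with 15.7, 16.2, 15 and 13.6 CPM in Clone 39 and 19.4 CPM or more in each other library, a separation from Clone 28 seen for 22.9% of genes and from Clone 35 for 20.3%, and a difference of -0.71 (SE 0.11, adjusted p = 7.20e-06) against Clone 35.

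The genes around CLDN7 were lower in Clone 39 as well. CLDN7 lies at chr17:7259903-7263983 on the minus strand (hg38), and the 99 other genes tested within 1 Mb of it had a median log2 difference of -0.94 between Clones 39 and 35 and of -0.88 between Clones 39 and 28, while the median over all genes was 0.00 in each. Of these neighbours, 60 were lower than CLDN7 itself in Clone 39 against Clone 35 and 85 against Clone 28. Along chromosome 17 the median difference between Clones 39 and 35 stayed between -0.94 and -0.58 in each 5 Mb bin from the chromosome end below CLDN7 up to 15 Mb above it, with 94 of 99 genes lower in the bin that starts at CLDN7. The bin from 15 to 20 Mb held 5 genes, and from 20 Mb onward the bin medians lay between 0.00 and 0.10. Between Clones 35 and 28 the bin medians of the same stretch lay between -0.14 and 0.07. Polarity genes of that stretch, DLG4 (a scaffold of the discs large family) and LLGL1 (a basolateral polarity gene), also differed between clones by the F-test of edgeR over the 3 clones and were lower in Clone 39, at 10.3 ± 1.1 against 19.5 ± 1.2 CPM (adjusted p = 1.22e-05) and 5.45 ± 1.9 against 10.1 ± 1.6 CPM (adjusted p = 0.00587) in Clone 35 (SD, n = 4). Genomic copy number was not measured in these libraries, and this look at neighbours was taken after the CLDN7 values had been seen. CLDN7 shares 53.6% of its span with ENSG00000262302 on the same strand, which stood at 44.2 ± 3.5, 50.4 ± 4.0 and 26.7 ± 1.6 CPM in Clones 28, 35 and 39 in DMSO, so reads of these genes may not be separable.

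**Figure D2:**
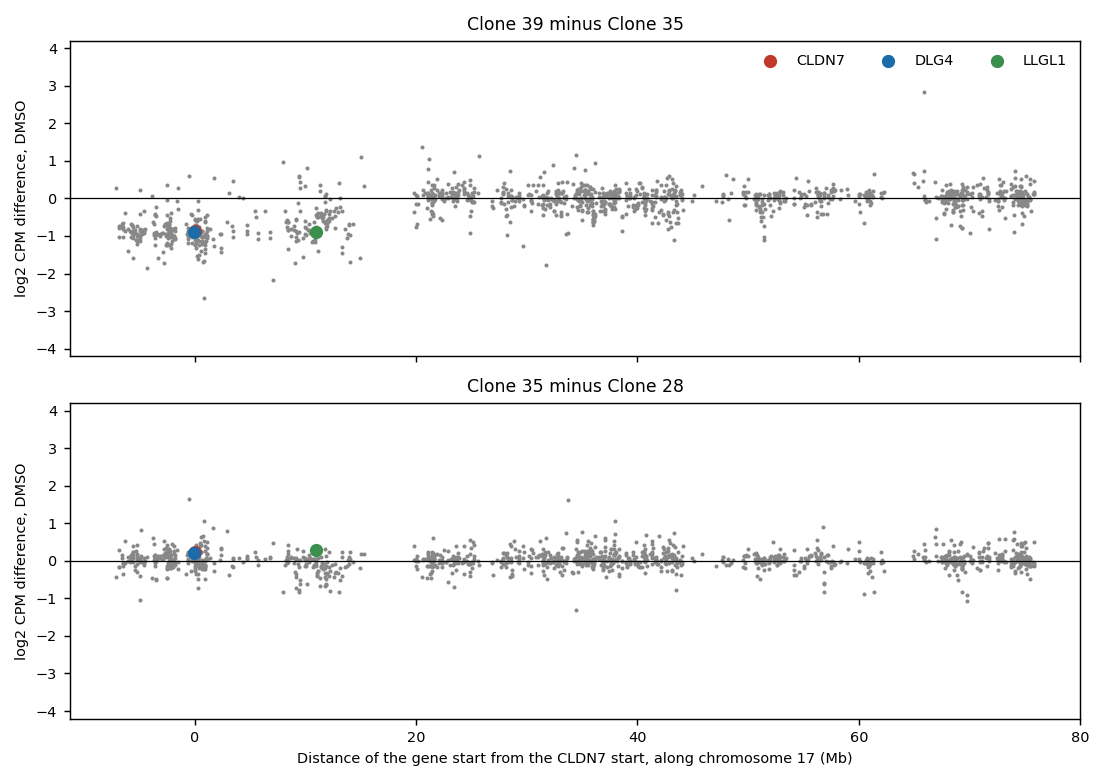
Difference in mean log2 CPM between clones in DMSO (vertical axis) for each gene tested on chromosome 17 against the distance of its start from the CLDN7 start in Mb (horizontal axis); the upper panel is Clone 39 minus Clone 35, the lower Clone 35 minus Clone 28, and CLDN7, DLG4 and LLGL1 are coloured. In the upper panel the genes up to 15 Mb above CLDN7 centre well below 0 and those beyond 20 Mb lie around 0, and in the lower panel both stretches lie around 0.

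Of the other 8 genes, 1 more passed the clone test in DMSO, so that 2 of 9 passed where 28.5% of all genes did. TJP1, the zonula occludens scaffold ZO-1, had 110 ± 12, 107 ± 6.5 and 122 ± 9.6 CPM in Clones 28, 35 and 39 (SD, n = 4), and each Clone 39 library was above each Clone 35 library, as for 19.9% of genes in either direction. TJP3 was separated in the same way in DMSO, without a call in this fit. The F-test of TJP1 gave an adjusted p of 0.0991 in edgeR. The TJP1 call was lost in 15 of the 24 fits that left out 1 library, with adjusted p up to 0.419. In Clone 28 these libraries were DMSO replicates 3 and 4 and dTAG-13 replicates 2, 3 and 4. In Clone 35 they were DMSO replicates 3 and 4 and dTAG-13 replicates 1, 3 and 4. In Clone 39 they were DMSO replicates 1 and 4 and dTAG-13 replicates 2, 3 and 4. In the dTAG-13 groups TJP1 did not pass (adjusted p = 0.622), while CGN, the plaque protein cingulin, did: it had 59.9 ± 3.0, 69.8 ± 4.3 and 60.9 ± 2.5 CPM in Clones 28, 35 and 39 (adjusted p = 0.0432 by edgeR), with all Clone 35 libraries above all others, as for 10.2% of genes against Clone 28 and 20.3% against Clone 39. In DMSO the CGN groups overlapped (65.8 ± 7.7, 73.4 ± 6.5 and 65.5 ± 3.2 CPM, adjusted p = 0.171 by edgeR).

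Same-numbered DMSO libraries of different clones deviated together, and with the replicate number as a block in the edgeR fit 7 of 9 genes passed the clone test where 39.7% of all genes did. TJP1 (adjusted p = 0.00727) and CLDN7 (5.46e-09) kept their calls in this fit, and TJP3 (0.0765), CGN (0.0505), CLDN4 (0.0609), CELSR1 (9.55e-05) and CELSR2 (0.0202) gained one. The block gave each number 1 effect shared by the DMSO and dTAG-13 libraries. Fitted by treatment, number 4 minus number 2 was 0.20 in DMSO and -0.14 in dTAG-13 for CLDN4. For CGN it was 0.26 and -0.014, so a shared effect does not describe these 2 genes. CELSR1 had 217 ± 17 CPM in Clone 28, 182 ± 9.3 in Clone 35 and 207 ± 11 in Clone 39 in DMSO, a difference of -0.25 (SE 0.050) between Clones 35 and 28 with the block and -0.25 (SE 0.091) without it, where its adjusted p was 0.107. It also passed without the block in edgeR with RLE factors (adjusted p = 0.0783), without a filter (0.0179), with at least 10 counts in every library (0.0911) and in the 12 DMSO libraries alone (0.0236), and by DESeq2 (0.0751). With library totals only CELSR1 did not pass in edgeR (adjusted p = 0.216). Nor did it pass in the dTAG-13 groups (adjusted p = 0.401 by edgeR), where Clones 35 and 28 differed by -0.080 (SE 0.091). CELSR2 had 35.3 ± 2.1, 30.7 ± 4.1 and 27.5 ± 3.7 CPM, with every Clone 28 library above every Clone 39 library, as for 20.8% of genes, and a log2 difference of -0.36 (SE 0.14) between Clones 39 and 28. Without the block its F-test gave an adjusted p of 0.173 in edgeR, and its contrast of Clones 39 and 28 gave 0.0788. That F-test passed without a filter (0.0339) and in the 12 DMSO libraries alone (0.0678). It did not pass with RLE factors, library totals only, at least 10 counts in every library or DESeq2 (0.148 to 0.240). Likewise without the block, CLDN4 had 0.136 by edgeR's F-test and 0.0649 between Clones 39 and 35. Its F-test passed only with library totals (0.0991) among these settings. The genes without a call in either fit, OCLN (81.8 ± 2.6, 86.6 ± 6.7 and 86.0 ± 11 CPM, adjusted p = 0.658 without the block by edgeR) and CLDN3 (51.9 ± 9.5, 56.3 ± 7.5 and 49.1 ± 8.8 CPM, adjusted p = 0.395), had overlapping groups. Without the block, leaving out 1 library gave a call to CELSR1 (Clone 28 DMSO replicate 1 or dTAG-13 replicate 1 or 3, Clone 35 DMSO replicate 2 or dTAG-13 replicate 1, Clone 39 dTAG-13 replicate 1 or 3, adjusted p = 0.0384 to 0.0963 in edgeR), CGN (Clone 28 DMSO replicate 4 or Clone 35 DMSO replicate 2, 0.0458 and 0.0665), CLDN4 (Clone 35 DMSO replicate 2 or Clone 39 DMSO replicate 4, 0.0548 and 0.0545) and CELSR2 (Clone 39 dTAG-13 replicate 4, 0.0848).

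CELSR1, a core planar polarity cadherin, was lower with dTAG-13 in 12 of 12 pairs. In Clone 28 its 4 values were 192, 227, 216 and 231 CPM in DMSO and 138, 184, 197 and 179 CPM in dTAG-13. In Clone 35 they were 173, 195, 181 and 180 CPM against 146, 170, 179 and 166 CPM, and in Clone 39 191, 219, 210 and 209 CPM against 150, 191, 203 and 200 CPM. The DMSO and dTAG-13 values overlapped in each clone, and the order was seen within pairs. The fitted log2 difference was -0.20 (SE 0.053), which is 13% lower, and per clone -0.31 (SE 0.093), -0.14 (SE 0.066) and -0.15 (SE 0.083) in Clones 28, 35 and 39.

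TJP3, the zonula occludens scaffold ZO-3, was the other gene lower in 12 of 12 pairs, a count reached by 0.197% of all genes tested, and this count is what chose both genes. Its values were 69.1, 75.8, 75.7 and 88.0 CPM in DMSO and 53.7, 59.7, 71.5 and 77.6 CPM in dTAG-13 in Clone 28. Clone 35 had 65.6, 78.3, 73.7 and 80.1 CPM against 64.9, 72.8, 69.2 and 68.4 CPM, and Clone 39 had 84.4, 80.6, 80.7 and 88.1 CPM against 76.7, 71.1, 78.1 and 80.1 CPM. The groups overlapped in Clones 28 and 35, and in Clone 39 all dTAG-13 values lay below all DMSO values, as for 1.03% of all genes. The fitted log2 difference was -0.16 (SE 0.048), or 10.4% lower, and per clone -0.23 (SE 0.10), -0.12 (SE 0.070) and -0.13 (SE 0.071). The smallest differences among the pairs were -0.01 for TJP3 and -0.02 for CELSR1, both in Clone 35.

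Of the other 7 genes, CGN came nearest to these, lower in 9 of 12 pairs with a log2 difference of -0.10 (SE 0.042). CELSR2 (-0.10, SE 0.079), CLDN4 (-0.04, SE 0.040) and TJP1 (-0.03, SE 0.041) were each lower in 8 of 12 pairs, and OCLN in 6 (-0.01, SE 0.043). The claudins CLDN3 (0.06, SE 0.064) and CLDN7 (0.11, SE 0.063) were lower in 5 and 4 pairs. For TJP1 the Clone 39 pairs were lower in 4 of 4 and those of the other clones in 2 of 4 each, and for CLDN7 the Clone 39 pairs were higher in 4 of 4. Fitting the 12 pairs as a block left these values close, at -0.21 (SE 0.032) for CELSR1 and -0.16 (SE 0.034) for TJP3. Across all genes 0.551% passed this contrast without the block and 2.33% with it, and nothing is read from the 9 genes against these shares.

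**Figure D3:**
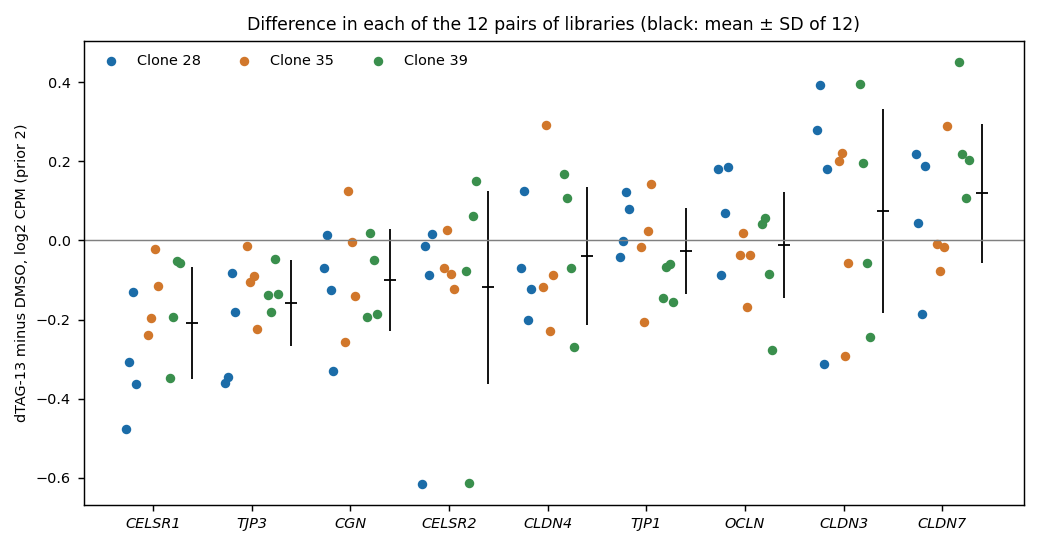
Difference in log2 CPM (prior count of 2) between dTAG-13 and DMSO (vertical axis) in each of the 12 pairs of libraries, coloured by clone, with the mean ± SD of the 12 in black; genes are ordered by their fitted difference. All points of CELSR1 and TJP3 lie below 0, and those of the other genes lie on both sides.

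The replicate number was taken to stand for the collection of a clone's libraries. In DMSO 6 of 9 genes passed the test of number within clones where 29% of all genes did, and in dTAG-13 3 of 9 where 19.4% did. The labels do not say that a number is the same time of day in each clone. Each adjusted p in these paragraphs is that of an F-test over the 4 numbers, and the numbers set beside it are the highest and the lowest, picked after the values were seen.

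CLDN3 had the largest such difference in DMSO among the 9 genes. Its DMSO values for numbers 1 to 4 were 47, 43.4, 65.0 and 52.4 CPM in Clone 28, 49.6, 50.2, 61.7 and 63.7 CPM in Clone 35, and 39.5, 43.8, 55.9 and 57.3 CPM in Clone 39. In each clone numbers 3 and 4 were above numbers 1 and 2. Number 3 exceeded number 1 by 0.42 ± 0.097 log2 units (SD, n = 3 clones), and the 4 numbers differed (adjusted p = 7.28e-06 by edgeR's quasi-likelihood F-test, 0.00430 by DESeq2). In dTAG-13 the values were 57.1, 57.1, 52.2 and 59.4, then 57.1, 58.6, 50.3 and 61.3, then 52.1, 50.2, 53.7 and 48.4 CPM, with no call (adjusted p = 0.467 by edgeR). The dTAG-13 minus DMSO difference of CLDN3 was accordingly 0.29 and 0.27 for numbers 1 and 2 and -0.22 and -0.04 for numbers 3 and 4 (means of 3 clones), and the difference between treatments in the effect of number was not tested.

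CELSR1 had its lowest values in number 1 in both treatments and all clones. Number 2 exceeded number 1 by 0.20 ± 0.034 log2 units in DMSO (adjusted p = 0.00950), and number 3 exceeded number 1 by 0.41 ± 0.11 in dTAG-13 (adjusted p = 4.49e-07), both by edgeR with SD over n = 3 clones. The dTAG-13 minus DMSO difference of CELSR1 averaged -0.35, -0.23, -0.07 and -0.18 for numbers 1 to 4, and that of TJP3 -0.17, -0.21, -0.07 and -0.18. CELSR2 passed in dTAG-13 (number 4 over number 1, 0.48 ± 0.16, adjusted p = 0.0204 by edgeR) and not in DMSO (adjusted p = 0.341).

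TJP1 was highest in number 1 (0.24 ± 0.090 over number 3 in DMSO, adjusted p = 0.00688 by edgeR), where CLDN3 and CELSR1 were lowest. CGN (0.25 ± 0.071, number 4 over number 2, adjusted p = 0.0236), CLDN4 (0.19 ± 0.033, number 4 over number 2, adjusted p = 0.0219) and TJP3 (0.23 ± 0.15, number 4 over number 1, adjusted p = 0.0623) also passed in DMSO by edgeR. CLDN4 passed in dTAG-13 with another order, number 2 being 0.22 ± 0.10 above number 3 (adjusted p = 0.0243 by edgeR). OCLN (adjusted p = 0.110) and CLDN7 (adjusted p = 0.501) did not pass in DMSO by edgeR. With library totals only (0.0147) and without a filter (0.0375) OCLN passed this test in edgeR. With RLE factors (0.130) or at least 10 counts in every library (0.139) OCLN did not. Of the 6 DMSO calls, CLDN3's held by DESeq2 and the others did not (adjusted p = 0.191 to 0.552). Leaving out 1 library ended the call of TJP3 (Clone 28 or Clone 35, DMSO replicate 1 or 4, adjusted p = 0.147 to 0.314), CGN (Clone 28 replicate 4, Clone 35 replicate 2 or 4; 0.102 to 0.158), CLDN4 (Clone 28 or Clone 35 replicate 2, Clone 39 replicate 4; 0.120 to 0.193) and CELSR1 (Clone 28 replicate 1; 0.130), and gave OCLN a call without Clone 28 replicate 2 or 4, Clone 35 replicate 3 or Clone 39 replicate 3 (0.0521 to 0.0789) and CELSR2 one without Clone 28 replicate 4 (0.0698), all in edgeR.

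**Figure D4:**
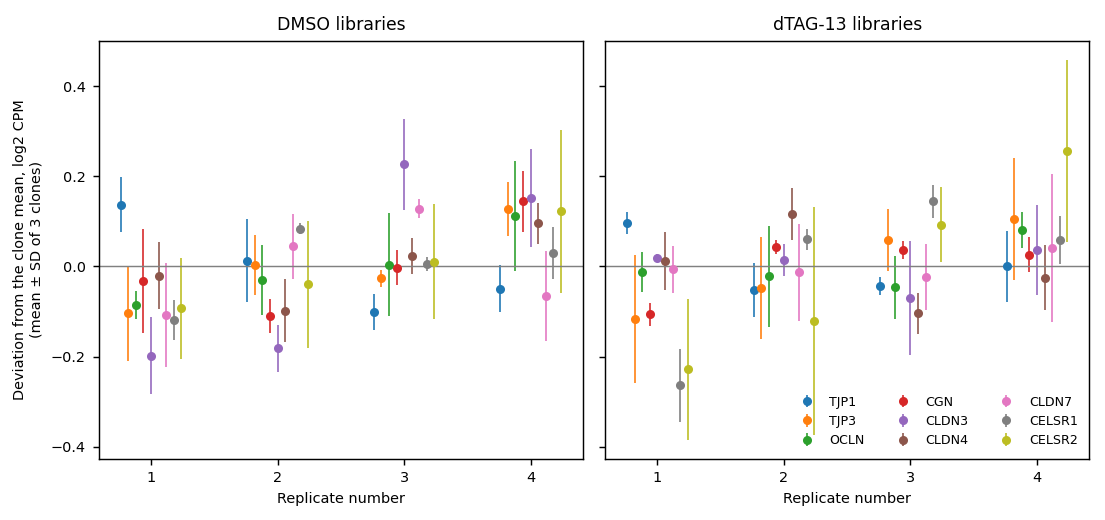
Deviation of log2 CPM from the mean of the same clone and treatment (vertical axis, mean ± SD of 3 clones) by replicate number (horizontal axis) in the DMSO and dTAG-13 libraries. CLDN3 spans -0.20 to 0.23 across numbers in DMSO and -0.07 to 0.04 in dTAG-13, and CELSR1 is lowest in number 1 in both panels.

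Over the 24 libraries the levels of TJP3 and CELSR1 had a Pearson correlation of log2 CPM of 0.67, the highest of the 36 pairs among the 9 genes, whose median was 0.15. The next were CGN with CLDN4 (0.62) and CLDN3 with CLDN4 (0.61), and the lowest was TJP1 with CLDN7 (-0.62). These points share clone, treatment and collection. TJP3 and CELSR1 were also chosen for being lower with dTAG-13 in every pair, so that shared drop enters their 0.67 and its rank. After removing group means the highest pair was CLDN3 with CLDN4 (0.61), TJP3 and CELSR1 had 0.55, and TJP1 and CLDN7 had -0.39. CGN and CLDN4 then had 0.39, and the lowest pair was TJP1 with CELSR1 (-0.62, against -0.14 before). Among 11723 genes with a mean of at least 100 counts, the patterns most like that of TJP3, before removing group means, were TTC39A (0.85), TMEM120A (0.81) and PLEKHJ1 (0.78). Those most like that of CELSR1 were LINC02925 (0.83), RAPGEFL1 (0.79) and DOCK9 (0.78). After removing group means these genes had 0.82, 0.64 and 0.64 with TJP3 and 0.76, 0.72 and 0.81 with CELSR1, in the same order.

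The other genes of these structures comprised 99 listed genes, of which 82 were tested. None of the 82 passed the dTAG-13 contrast by edgeR without the block, where 9 had an unadjusted p under 0.05 (11%, against 6.32% of all genes), and none by DESeq2. Their median log2 difference was -0.01, beside 0.00 over all genes, and 46 of 82 were lower. With the pairs as a block 5 of 82 passed in edgeR, where 2.33% of all genes did, and of these 3 rose and 2 fell. PATJ, a scaffold of the Crumbs complex, rose by 0.15 (SE 0.020, adjusted p = 4.58e-07) and CTNND1, the cadherin-binding p120-catenin, by 0.12 (SE 0.026, adjusted p = 0.00360), each higher in 12 of 12 pairs. DLG5, a membrane-associated guanylate kinase-like scaffold, fell by 0.10 (SE 0.023, adjusted p = 0.00631), lower in 12 of 12 pairs. DLG2, another discs large scaffold, rose by 0.10 (SE 0.029, adjusted p = 0.0685) and NECTIN4, an adherens junction adhesion protein, fell by 0.12 (SE 0.036, adjusted p = 0.0690), in 9 of 12 pairs each, and these calls were not made by DESeq2 with the block.

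Clone differences in DMSO were called for 30 of the 82 listed genes by edgeR, where 28.5% of all genes were, and for 42 with the block, where 39.7% were. By list without the block, these were 4 of 11 other claudins, 2 of 8 other junction membrane proteins, 3 of 13 plaque proteins, 9 of 24 apicobasal polarity genes, 8 of 16 planar polarity genes and 4 of 10 adherens junction genes. The widest were the adjacent claudins CLDN1, at 114 ± 15, 222 ± 20 and 653 ± 44 CPM in Clones 28, 35 and 39 (adjusted p = 5.17e-23), and CLDN16, at 9.91 ± 1.9, 19.0 ± 1.4 and 65.4 ± 6.0 CPM (adjusted p = 1.01e-19), both highest in Clone 39. The 6 genes tested within 1 Mb of CLDN1 include CLDN16, which had log2 differences of 1.76 between Clones 39 and 35 and 0.93 between Clones 35 and 28. These 6 genes had a median of -0.20 between Clones 39 and 35, beside 1.56 for CLDN1. Between Clones 35 and 28 their median was 0.28, with 6 of 6 higher in Clone 35, beside 0.96 for CLDN1. CXADR, a junction receptor, was also higher in Clone 39 (36.9 ± 3.4 against 22.2 ± 1.5 CPM in Clone 28, adjusted p = 4.69e-07), as were MARVELD3, ARHGEF2, FJX1 and FAT4. The adherens junction genes CDH1, E-cadherin (267 ± 7.0 against 352 ± 9.8 CPM in Clone 35, adjusted p = 6.69e-08), and CTNNB1, beta-catenin (133 ± 4.1 against 169 ± 5.9 CPM, adjusted p = 3.07e-05), were lower in Clone 39, and the plaque gene CGNL1 was lower in Clone 39 than in Clone 28 (adjusted p = 0.0324, and 0.266 without Clone 28 DMSO replicate 2). The 12 genes tested within 1 Mb of CTNNB1 were lower in Clone 39 too, with a median log2 difference of -0.28 against Clone 35 (9 of 12 lower) and -0.24 against Clone 28 (12 of 12), beside -0.34 and -0.26 for CTNNB1. The 63 genes tested within 1 Mb of CDH1 had medians of 0.07 (44 higher) and 0.08 (48 higher) in these comparisons. CDH1 itself had -0.40 and -0.33. These adjusted p-values are of edgeR's F-test over the 3 clones and not of the pair of clones named, and SDs are over n = 4.

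The replicate number in DMSO was called for 34 of the 82 by edgeR, where 29% of all genes were, and for 16 in dTAG-13, where 19.4% were. The smallest of their adjusted p-values in DMSO was that of PATJ (highest in number 1 and lowest in number 3, 8.85e-16, and 1.22e-11 in dTAG-13). Among the others were DLG2 (2.92e-10, and 3.89e-06 in dTAG-13), MAGI1, a junction scaffold (number 1 over number 3, adjusted p = 6.18e-07), and CTNND1 (number 1 over number 4, adjusted p = 0.000326), all called in dTAG-13 as well. CTNNA1, INTU, LIN7B and ESAM kept their DMSO calls by edgeR in each of the 12 fits that left out 1 library. They were not called in dTAG-13 (adjusted p = 0.288, 0.153, 0.788 and 0.811 by edgeR, in that order). CLDN8, CLDN10, CRB1, PRICKLE3, F11R and ARHGEF2 each lost their DMSO calls without 1 or more of the 12 libraries.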

How the data were processed

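PRO-seq maps engaged RNA polymerase. The authors trimmed adapters with cutadapt 1.8.1, removed duplicates with UMIs, dropped ribosomal reads, aligned to hg38 with Bowtie2 2.4.4 and counted reads per gene; tool versions and build are from the submitters' processing notes. The deposited values are raw counts per gene and library, without normalization; counted intervals, annotation and strand setting are not given in the sources used here. Of 60605 identifiers, 60463 matched GENCODE 44, used for names, positions and overlaps. Promoter windows are from RefSeq.

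Tests were run with edgeR 4.0.16 under R 4.3.3. filterByExpr on the 6 groups (minimum count 10) left 22326 genes, all 9 described genes among them; libraries were scaled by TMM, and quasi-likelihood fits were robust. The clone test was an F-test of the DMSO groups in the fit of 6 groups (18 residual degrees of freedom), with pairwise contrasts; the number test fitted clone and replicate number in the 12 DMSO libraries; dTAG-13 was fitted with clone and treatment. P-values were adjusted by Benjamini-Hochberg over all genes tested, with a threshold of 0.1. Log2 CPM used a prior count of 2. DESeq2 1.42.0 and other scalings, filters and left-out libraries were alternatives. The scripts were tested on simulated data.

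Per the methods both treatments were collected together, at different times of a day; libraries were paired here by the labels' replicate number, taken to stand for that collection. Between treatments of a clone, the 12 same-number correlations of deviations from group means were 0.0926 to 0.318 (median 0.187), 11 of them over 0.1. Of the 36 with different numbers, 9 were over 0.1 (-0.312 to 0.286, median -0.114). Across clones in DMSO all 12 with the same number were over 0.1 (0.135 to 0.352, median 0.222), so number was also a block in the clone test. With different numbers, 11 of 36 were over 0.1 (-0.309 to 0.258, median -0.141), so the ranges overlapped. The chi-square of replicate pairs, divided by its degrees of freedom, was 1.64 or more, so no library was counted as a duplicate. The genes and the lists were chosen with earlier results of these data known. Named listed genes were those past the threshold under dTAG-13 in either fit, and up to 2 per list with the widest range of group means for the clone and number tests. Precision at these depths was a counting error of 3.19% for CELSR1 to 9.90% for CLDN7 at their median counts, covering counting error only.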

Additional observations from a re-analysis of the deposited data

Results flagged for a closer look

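Of the 54 groups of 4 libraries formed by the 9 genes, 2 had a value far from the other 3 by Dixon's test, where chance gives about 2.7. TJP1 in Clone 39 dTAG-13 was 122.298 CPM in replicate 1 against 109 to 111 CPM in the other 3, a gap of 0.831 of the group's range. CELSR2 in Clone 28 dTAG-13 was 23.4 CPM in replicate 1 against 33.6 to 35.6 CPM in the other 3, a gap of 0.834 of the range; its 98 counts in that library compare with 174 to 227 in the others.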

How the results depend on the processing

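Genes called for clone in DMSO numbered 6361 (5585 to 6381 without 1 library, 8861 with the replicate block, 5200 to 6392 under the other alternatives). Genes called for replicate number numbered 6479 (5599 to 6282 without 1 library) and 2358 by DESeq2. The dTAG-13 contrast called 123 genes, 66 to 151 without 1 library (Clone 28 DMSO replicate 4 giving 66 and replicate 3 giving 80, Clone 28 dTAG-13 replicates 1 and 2 giving 76 and 69), 197 without a filter, 521 with the replicate block, 1, 41 and 47 without Clones 28, 35 and 39, and 64 at a threshold of 0.05. The listed genes called under dTAG-13 were 0, 0 to 0 without 1 library, 5 with the replicate block, 5 with the block and RLE factors or library totals, and 3 with the block and DESeq2; the last 3 settings were chosen after seeing the data. In the clone test the block changed no call of the 9 genes beyond those in the report; their dTAG-13 values carry no test. Signs turned, all in the dTAG-13 libraries, for OCLN between Clones 35 and 28 (-0.062), and between numbers for CGN (-0.014), CLDN3 (-0.12), CLDN4 (-0.14), CLDN7 (-0.0063) and CLDN8 (-0.043). The call of CLDN7 between clones held under each alternative run. TJP1's clone call was lost without a filter (adjusted p = 0.268), with at least 10 counts in every library (0.125) and in the 12 DMSO libraries alone (0.185), and its number call with library totals (0.103), all in edgeR. With all 24 libraries in the number test OCLN (0.0481) and CELSR2 (0.00282) passed and CLDN3 (0.161) and CLDN4 (0.593) did not. Without 1 DMSO library the number call was lost for CLDN8 in 4 of 12 fits (Clone 35 replicates 2 and 3, Clone 39 replicates 1 and 3), PRICKLE3 in 4 (replicate 3 of each clone, Clone 39 replicate 1), CRB1 in 3 (Clone 28 replicates 2 and 3, Clone 35 replicate 2), F11R in 2 (replicate 1 of Clones 28 and 35), ARHGEF2 in 1 (Clone 28 replicate 4) and CLDN10 in 8 (all but Clone 28 replicates 1, 3 and 4 and Clone 35 replicate 3). CLDN7, with 48 to 241 counts a library, and CELSR2, with 74 to 287, were the least precise of the 9 genes.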
